A study of Mus musculus with 2 samples.

Results

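The 10 genes described here encode the interleukin-1 (IL-1) agonists *Il1a* and *Il1b*, the receptor antagonist *Il1rn*, the receptors *Il1r1*, *Il1r2* and *Il1rap*, the IL-18 inhibitor *Il18bp*, and the inflammasome proteins of *Nlrp3*, *Casp1* and *Pycard*. They were chosen by symbol, and all 10 were found among the 31053 genes listed. CD45+ leukocytes had been sorted on day 4 from *Ptgs*-/- tumors, grown from *Braf*V600E melanoma cells that lack COX-1 and COX-2, in wild-type C57BL/6 hosts 8 weeks old. No antibody is recorded for the control hosts. The study's methods for depletion experiments list control IgG and a schedule that starts before implantation, unlike the recorded days given next. NK cell-depleted hosts received 200 µg of anti-NK1.1 (clone PK136) and 30 µg of anti-asialo GM1 on days 0 and 2, of which anti-asialo GM1 can also bind other leukocytes. The tumors of a group were pooled into 1 library, and parental melanoma cells were added to both sorted samples. The genotype label of both samples names wild-type tumor cells, whereas titles and design name the knockout.

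IL-1α and IL-1β signal through IL-1R1, which recruits the coreceptor IL-1RAP and then the adaptor MyD88. The antagonist IL-1RN occupies IL-1R1 without recruiting the coreceptor, and IL-1R2 binds IL-1 but cannot signal, so it acts as a decoy. IL-1β is made as an inactive precursor. Caspase-1 cleaves it once a sensor such as NLRP3 and the adaptor ASC (the product of *Pycard*) have assembled an inflammasome, and IL-18BP neutralizes IL-18, which caspase-1 also matures. Assembly and cleavage concern proteins, whereas the values below are transcripts.

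After filtering, 5292 control and 4506 NK cell-depleted cells remained, with medians of 4170 and 4893 unique molecular identifiers (UMIs, distinct transcript molecules) per cell. The libraries shared 5 cell barcodes. Cells were clustered without the 10 genes and the other pathway genes, and the 22 clusters gave 9 classes named by markers ("-like") and 3 unnamed clusters. Cluster 2 was led by *Hes1*, *Htra3* and *Havcr2*, cluster 9 by *Cdh1*, *Ccl17* and *Spint1*, and cluster 19 by *Gm5483*, *Hcar2* and *Cxcl3*. Cluster 19 also had 7 of 8 neutrophil markers above other cells. Clusters 15 and 18 are called by number too, since their names, melanoma-like and eosinophil-like, went against the markers of the control. In cluster 18 eosinophil markers summed to 14 and 190 UMIs and mast cell markers to 95 and 0 in the control and the NK cell-depleted library, and in cluster 15 melanoma markers summed to 343 and 1596 UMIs and mast cell markers to 733 and 4. Monocyte/macrophage-like cells numbered 2723 and 2766 in the control and the NK cell-depleted library, neutrophil-like cells 367 and 474, and conventional DC-like cells 228 and 311. NK-like cells numbered 564 and 2 and are described in the control only. Values given as pairs are control first. Levels are UMIs of the gene per 1000000 UMIs of the class (CPM), and 95% intervals cover counting error only. With 1 library per group, no difference was tested or has a replicate check.

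Sequences upstream of 4 genes are shown: *Il1b* and *Nlrp3*, which each had the other as the most similar gene over clusters, and *Il1rn* and *Il1r2*, which oppose IL-1. Each run holds the 250 bases before an annotated start (RefSeq, GRCm38.p6), 5′ to 3′ on the strand of the gene. Capitals mark matches on either strand to GGGNNNNNCC (a κB-like motif), TTCNNNGAA (GAS), the ISRE motif, TGANTCA (AP-1) or GAGGAA (a PU.1 core).
Il1b, chr2:129371140-129371389, minus strand: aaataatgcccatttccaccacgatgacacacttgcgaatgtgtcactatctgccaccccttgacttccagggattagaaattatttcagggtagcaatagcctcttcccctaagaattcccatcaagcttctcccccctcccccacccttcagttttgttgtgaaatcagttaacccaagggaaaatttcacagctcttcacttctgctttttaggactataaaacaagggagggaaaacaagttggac
Nlrp3, chr11:59541319-59541568, plus strand: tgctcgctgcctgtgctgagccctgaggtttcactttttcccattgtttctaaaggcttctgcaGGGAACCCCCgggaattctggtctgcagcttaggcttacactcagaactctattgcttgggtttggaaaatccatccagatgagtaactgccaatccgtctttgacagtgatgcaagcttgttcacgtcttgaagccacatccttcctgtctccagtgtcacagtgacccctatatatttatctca
Il1rn, chr2:24345121-24345370, plus strand: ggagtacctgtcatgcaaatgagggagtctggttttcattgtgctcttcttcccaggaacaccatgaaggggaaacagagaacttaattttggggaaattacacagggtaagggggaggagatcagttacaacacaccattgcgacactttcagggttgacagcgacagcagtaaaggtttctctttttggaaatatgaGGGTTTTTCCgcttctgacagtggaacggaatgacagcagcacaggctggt
Il1r2, chr1:40085843-40086092, plus strand: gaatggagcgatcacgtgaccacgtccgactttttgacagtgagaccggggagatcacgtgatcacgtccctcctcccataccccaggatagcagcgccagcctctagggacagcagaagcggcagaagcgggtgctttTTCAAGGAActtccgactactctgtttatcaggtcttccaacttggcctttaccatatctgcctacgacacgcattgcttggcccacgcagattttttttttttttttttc
*Nlrp3* has 2 annotated windows and *Il1rn* 3, and those shown were chosen after the matches were seen. The *Il1b* window held 0 matches. The *Nlrp3* and *Il1rn* windows each held 1 κB-like match, and the *Il1r2* window 1 GAS match. The other *Nlrp3* window held 3 GAGGAA matches and 0 κB-like ones, and of the other *Il1rn* windows 1 held a κB-like and an AP-1 match and 1 held none. Of 32841 promoter windows of the same length, 45.8% held the κB-like letters, 7.02% GAS, 2.98% ISRE, 6.75% AP-1 and 23.3% GAGGAA. Of the 14 windows of the 10 genes, 6, 1, 0, 2 and 4 held them, which is the count to set against these shares. By gene, 5, 1, 0, 2 and 4 had them in at least 1 window. The matches describe letters, not bound sites.

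*Il1b*, the main secreted IL-1 agonist of myeloid cells, was highest in neutrophil-like cells, at 25807 (25353 to 26268) CPM in the control and 23747 (23390.2 to 24108) in the NK cell-depleted library. Monocyte/macrophage-like cells held 1288 and 1401 CPM. Neutrophil-like cells hold little RNA, with medians of 1161 and 1316 UMIs against 4827 and 5499.5 in monocyte/macrophage-like cells. The order was the same per cell, with means of 33.5 and 35.6 *Il1b* UMIs in a neutrophil-like cell and 6.85 and 8.25 in a monocyte/macrophage-like cell. At least 1 *Il1b* UMI was found in 99.7% and 99.6% of neutrophil-like cells and in 53.7% and 60.1% of monocyte/macrophage-like cells. With every cell thinned to 1000 UMIs, which left 271 and 402 neutrophil-like cells, the shares were 99.6% and 99.5% of neutrophil-like cells, against 38.5% and 43.7% of monocyte/macrophage-like cells. Thinned B-like cells, which should lack *Il1b*, gave 1.92% and 5.26%, with medians of 1596 and 1730 UMIs before thinning. T- and B-like cells lay between 17.9 and 40.8 CPM.

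With both libraries summed and cluster 18 left out, the order of the levels was neutrophil-like (24573 CPM), cluster 19 (11213), cluster 2 (2556), conventional DC-like (2051), cluster 9 (2003), monocyte/macrophage-like (1348) and migratory DC-like (797). Conventional DC-like cells did not differ from cluster 9 beyond counting error. Within the monocyte/macrophage-like class *Il1b* was highest in both libraries in cluster 6, led by genes such as *Ly6c2* and *Vcan* of classical monocytes, at 2583 and 2756. Cluster 5 (*Ace*, *Chil3*) came next, at 2213 and 2263. Cluster 0 (*Ccl8*, *Lyve1*) held 908 and 865, and cluster 13, whose cells had a median of 1378 UMIs, was lowest of the class at 173 and 51.4.

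Neutrophil-like cells made up 6.93% of control cells and 1.92% of control UMIs, yet held 26.6% of the *Il1b* UMIs. In the NK cell-depleted library they were 10.5% of cells and 3.06% of UMIs, and held 31.8%. Monocyte/macrophage-like cells held 40.4% and 42.9%. Over all cells *Il1b* stood at 1860.5 and 2289 CPM, a ratio of control to NK cell-depleted of 0.813 (0.803 to 0.823). Such totals move with the makeup of the libraries, so groups were compared within classes.

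*Il1a*, the agonist that is active without cleavage, was sparse, with 144 and 108 UMIs in all. Monocyte/macrophage-like cells held 102 and 67 of them, at 7.04 and 4.12 CPM. Neutrophil-like cells had a higher level, at 37.8 (22.4 to 59.8) in the control and 16.9 (8.72 to 29.5) in the NK cell-depleted library. Cluster 19 held 98.3 and 61.6, from 6 and 3 UMIs. NK-, B- and migratory DC-like cells and cluster 15 held 0 *Il1a* UMIs, which in B-like cells still allows up to 26.9 and 40.8 CPM (3 counts).

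**Figure D1:**
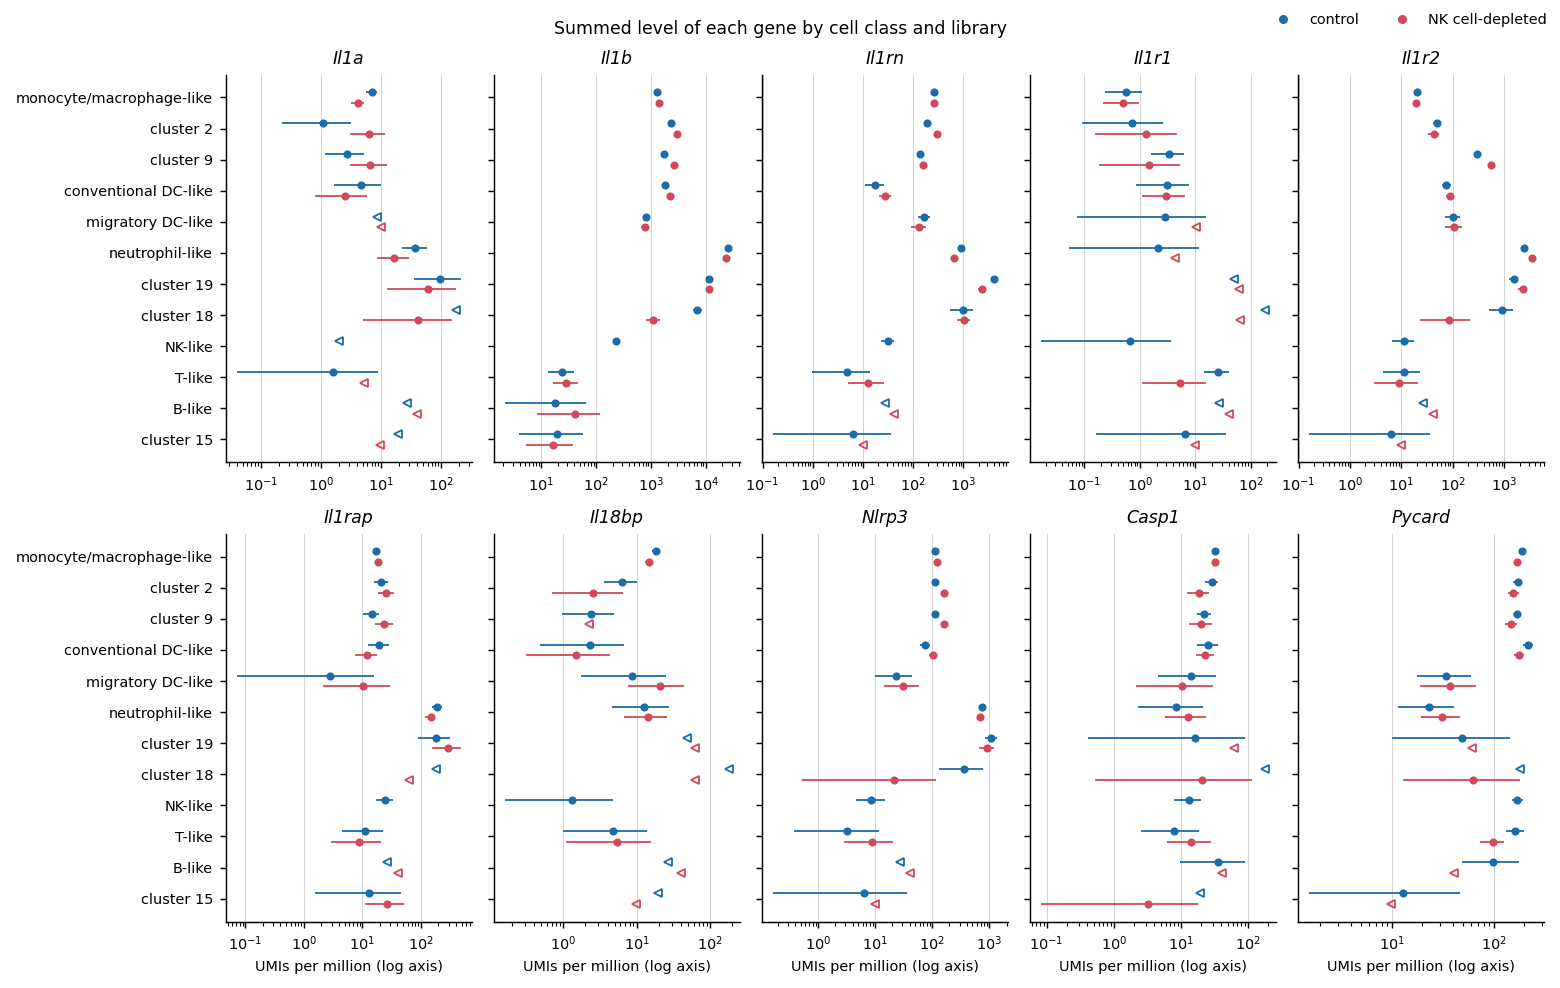
Level of each of the 10 genes (CPM, log axis) by cell class in each library, with 95% Poisson intervals. Open triangles mark classes with 0 UMIs, placed at the level that 3 UMIs would give. *Il1b* is highest in neutrophil-like cells (25807 and 23747), whereas *Pycard* is low there (23.1 and 30.9).

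*Il1rn*, the antagonist of the IL-1 receptor, was highest in cluster 19, at 4097 (3605 to 4638) CPM in the control and 2362 (1950.3 to 2836) in the NK cell-depleted library. Neutrophil-like cells held 891 and 655 and monocyte/macrophage-like cells 259 and 259.8. Conventional DC-like cells, with a higher *Il1b* level than monocyte/macrophage-like cells, held only 17.6 and 27.3 CPM of *Il1rn*. T-like cells held 4.75 and 12.5 and B-like cells 0. Within the monocyte/macrophage-like class *Il1rn* was highest in cluster 12 (*Slc7a2*, *Sdc1*), at 410.1 and 537, and cluster 1 (*Gpnmb*, *Spp1*), at 360.2 and 545. It was lowest in both libraries in cluster 5, at 122 and 56.6, although cluster 5 was among the highest in *Il1b*.

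The antagonist was then set against the agonist in the same cells, as *Il1rn* UMIs per 100 *Il1b* UMIs. This number serves to compare classes and does not compare amounts of the transcripts. Monocyte/macrophage-like cells held 20.1 (19.4 to 20.8) in the control and 18.5 (17.9 to 19.2) in the NK cell-depleted library. Neutrophil-like cells held 3.45 (3.13 to 3.80) and 2.76 (2.51 to 3.02), and conventional DC-like cells, the lowest of the 8 classes compared, 0.974 (0.616 to 1.47) and 1.24 (0.931 to 1.61). Cluster 2 held 8.05 and 10.0, cluster 9 7.97 and 5.91, and migratory DC-like cells 20.07 and 16.96. Cluster 19 was higher in the control, at 36.5 (31.4 to 42.2) and 21.1 (17.1 to 25.8). The value of the monocyte/macrophage-like class joined clusters that differed in opposite directions. Clusters 5 and 6 were higher in the control, at 5.53 and 2.50 and at 7.98 and 4.21. Cluster 1 was lower in the control, at 32.7 (30.3 to 35.2) and 77.5 (70.6 to 85.0). Clusters 0, 4, 11, 12 and 13 were lower in the control too, cluster 12 at 43.7 and 68.5 and cluster 13 at 132 and 611. Cluster 14 stood at 18.5 and 19.5. Cluster 18, whose markers differed in kind between the libraries, stood at 13.8 (7.63 to 23.4) and 94.2 (62.5 to 142).

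**Figure D2:**
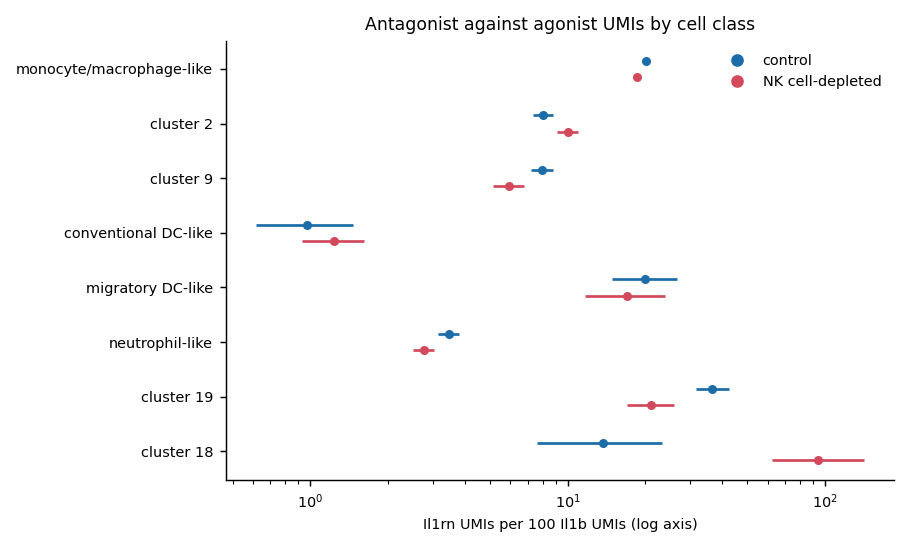
*Il1rn* UMIs per 100 *Il1b* UMIs (log axis) by cell class in each library, with exact 95% intervals. Conventional DC-like cells lie lowest, at 0.974 and 1.24, then neutrophil-like cells, at 3.45 and 2.76, and monocyte/macrophage-like cells lie at 20.1 and 18.5.

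*Il1r1*, the signaling receptor, had 44 UMIs in 40 control cells and 21 in 17 NK cell-depleted cells. T-like cells held 16 and 3 of these UMIs, at 25.3 and 5.34 CPM. T-like cells with at least 3 of 8 gamma-delta T cell markers, a limit chosen after the data were seen, numbered 33 and 13. They held 15 and 3 *Il1r1* UMIs, a level of 178 (99.7 to 294) and 81.8 CPM (16.9 to 239). The other 254 and 209 T-like cells held 1 and 0. Gamma-delta T cells that make IL-17 are known to respond to IL-1. Monocyte/macrophage-like cells held 8 and 8 *Il1r1* UMIs, and neutrophil-like cells 1 and 0.

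*Il1r2*, the decoy receptor, was highest in neutrophil-like cells, at 2463 (2324 to 2608) CPM in the control and 3545 (3408 to 3686) in the NK cell-depleted library. At least 1 UMI was found in 83.9% and 94.1% of these cells, and in 81.5% and 91.8% after thinning to 1000 UMIs. B-like cells held 0 *Il1r2* UMIs in both libraries. Cluster 19 held 1541 and 2301 CPM. Cluster 9, which was led by *Cdh1* and the chemokine gene *Ccl17*, held 298 (279 to 318) and 562 (523 to 603), while its 8 neutrophil markers summed to 32.7 and 30.4, against 52442 and 49086 in neutrophil-like cells. Neutrophil-like cells held 42.6% and 63.2% of the *Il1r2* UMIs, and cluster 9 32.10% and 18.96%. Monocyte/macrophage-like cells stood at 20.5 and 19.6 CPM.

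*Il1rap*, the coreceptor, was highest in cluster 19, at 180.3 (90.0 to 323) and 288 (157 to 483) CPM, and in neutrophil-like cells, at 191 (154 to 235) and 148 (121 to 179). These levels did not differ beyond counting error with both libraries summed. Cluster 2 held 20.9 and 25.7, monocyte/macrophage-like cells 17.4 and 18.9 and control NK-like cells 24.3.

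*Il18bp*, which encodes the soluble inhibitor of IL-18, was found mainly in monocyte/macrophage-like cells, which held 86.6% and 90.2% of its 307 and 266 UMIs. Within the class it was highest in cluster 0 (*Ccl8*, *Lyve1*), at 56.0 and 33.3 CPM from 165 and 166 UMIs. Cluster 6 held 19.6 and 10.9 and cluster 12 1.98 and 1.88. *Il18* itself stood at 26.0 and 23.0 in monocyte/macrophage-like cells. The IL-18 receptor genes were found in lymphocytes, with *Il18r1* at 286 in control NK-like cells and 351 and 194 in T-like cells. *Il18rap* stood at 431 in control NK-like cells and also at 204 and 221 in neutrophil-like cells.

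*Nlrp3*, the sensor, had an order of classes close to that of *Il1b*. Cluster 19 held 1065 and 904 CPM, neutrophil-like cells 746 (670.3 to 828) and 687 (628 to 751), and monocyte/macrophage-like cells 109.6 and 120.4. B-like cells held 0 *Nlrp3* UMIs. *Pycard*, the adaptor gene, had another order, with 218 and 178 in conventional DC-like cells, 189 and 169 in monocyte/macrophage-like cells and 171 in control NK-like cells, but 23.1 (11.5 to 41.4) and 30.9 (19.4 to 46.8) in neutrophil-like cells. After thinning to 1000 UMIs, 1.11% and 1.74% of neutrophil-like cells had a *Pycard* UMI, against 14.4% and 14.2% of monocyte/macrophage-like cells. The neutrophil-like class joined cluster 3, where *Pycard* stood at 11.7 and 16.3, with 8 and 15 cells of cluster 20, whose median was 6064 UMIs and where it stood at 119.8 and 122.

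*Casp1*, the gene of the caspase that cleaves pro-IL-1β, stood at 32.5 and 32.3 CPM in monocyte/macrophage-like cells and at 8.40 (2.29 to 21.5) and 12.7 (5.78 to 24.0) in neutrophil-like cells, from 4 and 9 UMIs. Within the monocyte/macrophage-like class cluster 5 held 63.6 and 56.1, and cluster 6 held 49.4 and 38.0. After thinning, a *Casp1* UMI was found in 3.05% and 2.88% of monocyte/macrophage-like and 0.369% and 1.24% of neutrophil-like cells. The neutrophil-like cells were thus highest in *Il1b* and lowest, among the classes with at least 200 cells in both libraries, in *Pycard*.

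The libraries were then compared within classes, the design's question being what differed in hosts without NK cells. A gene was called where its levels differed at least 1.5-fold and the interval of the ratio left out 1. In monocyte/macrophage-like cells 9 of 10 genes had at least 20 UMIs and were compared. *Il1a* was called, higher in the control at 7.04 against 4.12 CPM, a ratio of 1.71 (1.24 to 2.36). Of 11543 genes compared in this class, 6.14% were called higher and 2.91% lower in the control, so that 1 call in 9 genes was not far from the background. The median log2 ratio of the 9 was 0.01, against -0.01 over all genes. The *Il1a* ratio was 1.29 when cells above 15000 UMIs or 4000 genes were kept and 1.21 with coarser clusters, and was not called in either.

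In monocyte/macrophage-like cells *Il1b* had a ratio of 0.919 (0.902 to 0.937), *Nlrp3* of 0.910 (0.851 to 0.973), *Il1rn* of 0.996 (0.953 to 1.04), *Pycard* of 1.12 (1.06 to 1.18) and *Il18bp* of 1.25 (1.04 to 1.49). *Casp1*, *Il1r2* and *Il1rap* had ratios of 1.01, 1.05 and 0.922, with intervals that held 1. With the level in B-like cells subtracted, the *Pycard* ratio was 0.535, from 11 and 0 UMIs in B-like cells. The class was made of different clusters in each library. Clusters 1, 4 and 0 held 24.9%, 20.2% and 16.2% of its control cells, and clusters 0, 6 and 5 held 23.8%, 17.9% and 17.4% of its NK cell-depleted cells. With cluster weights set equal between the libraries, the ratio of *Il1b* was 1.06, on the other side of 1, and that of *Il1rn* 0.784. In that setting *Il18bp*, at 1.64, was called and *Il1a*, at 1.26, was not.

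**Figure D3:**
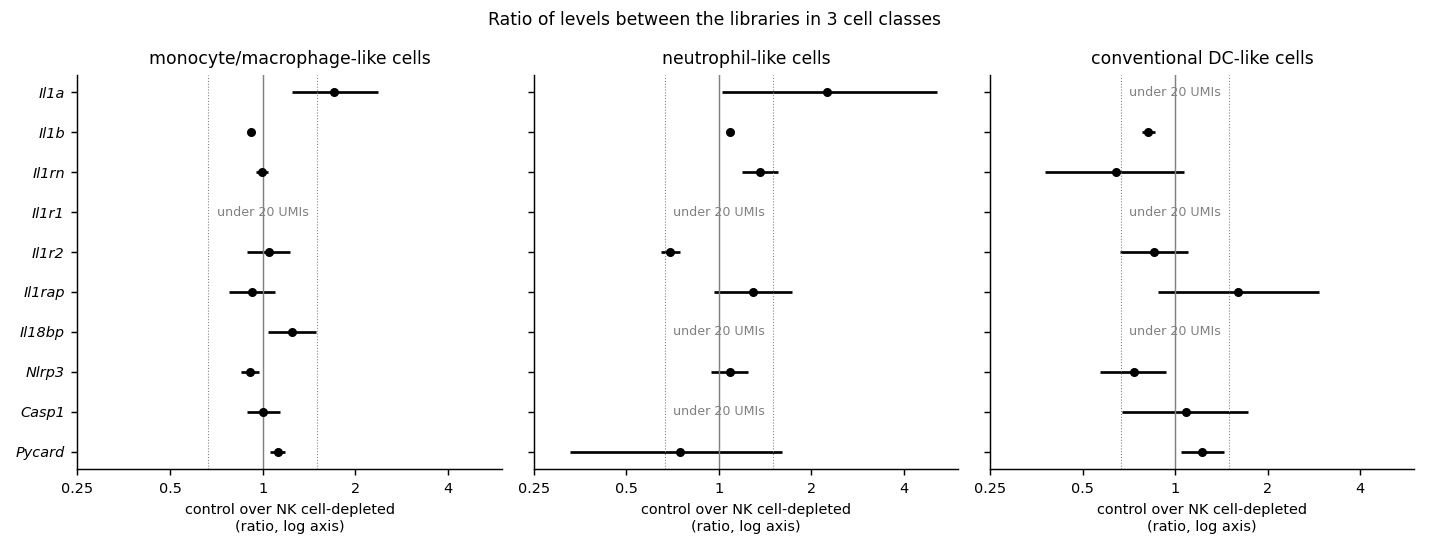
Ratio of the level in control cells to that in NK cell-depleted cells (log axis) of each gene in 3 classes, with exact 95% counting intervals. Dotted lines mark 1.5-fold, and genes with under 20 UMIs have no point. *Il1a* lies at 1.71 and 2.24 in monocyte/macrophage-like and neutrophil-like cells, and *Il1r2* at 0.695 in neutrophil-like cells.

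In neutrophil-like cells 7 genes were compared and *Il1a* was called, higher in the control at 37.8 against 16.9 CPM, a ratio of 2.24 (1.02 to 5.10) from 18 and 12 UMIs. Of 5123 genes compared, 3.9% were called higher and 4.55% lower in the control. The median log2 ratio of the 7 was 0.12, against -0.04 over all genes. Without cells that the doublet caller Scrublet marked, the *Il1a* ratio was 2.12 and was not called. *Il1r2* was lower in the control, at 2463 against 3545 CPM, a ratio of 0.695 (0.648 to 0.745), short of 1.5-fold. It lay between 0.300 and 0.713 in the 12 alternatives run, lowest after thinning to 2000 UMIs, which left 10 and 33 cells. *Il1rn* was higher in the control, at 891 against 655, a ratio of 1.36 (1.19 to 1.55), and *Il1b* had a ratio of 1.09 (1.06 to 1.11). In those 10 and 33 cells both lay on the other side of 1, at 0.849 and 0.531, and *Il1b* did so with finer clusters as well, at 0.869. *Nlrp3*, *Il1rap* and *Pycard* had intervals that held 1.

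In conventional DC-like cells 7 genes were compared and 0 were called, against 4.08% of 8574 genes called higher and 4.15% lower in the control. *Il1b* stood at 1809 and 2208 CPM, a ratio of 0.819 (0.779 to 0.862), *Nlrp3* had a ratio of 0.733 (0.571 to 0.937), and *Pycard* of 1.23 (1.05 to 1.44). The median log2 ratio of the 7 was -0.23, against -0.01 over all genes. Markers of plasmacytoid DCs in this class summed to 514 and 192 CPM, from 671 and 387 UMIs. Those of type 1 conventional DCs summed to 1732 and 1917, and those of type 2 to 3133 and 3093. Whether such differences in makeup bear on the ratios was not tested, and no alternative was run for this class.

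Single clusters gave a comparison at a more even makeup, over the 13 clusters with at least 100 cells in each library. *Il1rn* differed in both directions, with ratios from 0.570 to 2.16. It was lower in the control beyond counting error in 6 clusters. These were cluster 0 (149 against 204 CPM), cluster 1 (360.2 against 545), cluster 2 (185 against 303), cluster 4 (294 against 393), cluster 11 (197 against 346) and cluster 12 (410.1 against 537). It was higher in the control in cluster 5 (122 against 56.6), cluster 6 (206 against 116) and the neutrophil-like cluster 3 (953 against 689.9). The ratio of 0.996 in the whole monocyte/macrophage-like class therefore joined clusters that differed in opposite directions.

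*Il1b* was higher in the control beyond counting error in 5 of 13 clusters and lower in 4. The highest ratio was that of cluster 1, at 1102 against 703 CPM (1.57, 1.46 to 1.68), and the lowest that of cluster 9, at 1733 against 2599 (0.667, 0.639 to 0.696). In cluster 1 the agonist was thus higher and the antagonist lower in the control. *Il1r2* was lower in the control beyond counting error in clusters 3, 9 and 11 and higher in cluster 6. In cluster 9 it stood at 298 against 562 CPM (0.530, 0.480 to 0.585).

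*Pycard* was higher in the control in 11 of 12 clusters compared, 6 of them beyond counting error, with ratios from 0.989 to 1.66. The highest was in T-like cells, at 163 against 97.9 CPM (1.66, 1.19 to 2.35). T cell markers in these cells summed to 3926 and 3979 CPM, but gamma-delta T cell markers to 804 and 388 and mast cell markers to 362 and 0. The makeup of this cluster thus differed between the libraries, and its bearing on the ratio was not tested. The subtraction of the B-like level, 98.7 and 0 CPM from 11 and 0 UMIs, which turned the ratio in the monocyte/macrophage-like class to 0.535, was not run for single clusters. *Casp1* was higher in the control in 9 of 10 clusters, beyond counting error only in cluster 2, at 29.3 against 18.6. *Nlrp3* was lower in the control beyond counting error in clusters 2, 8, 9 and 11, and higher beyond counting error in 0 clusters. *Il18bp* was higher in the control in all 5 clusters compared, beyond counting error in cluster 0, at 56.0 against 33.3 (1.68, 1.35 to 2.10), and in cluster 1, at 9.03 against 1.35 from 23 and 2 UMIs.

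**Figure D4:**
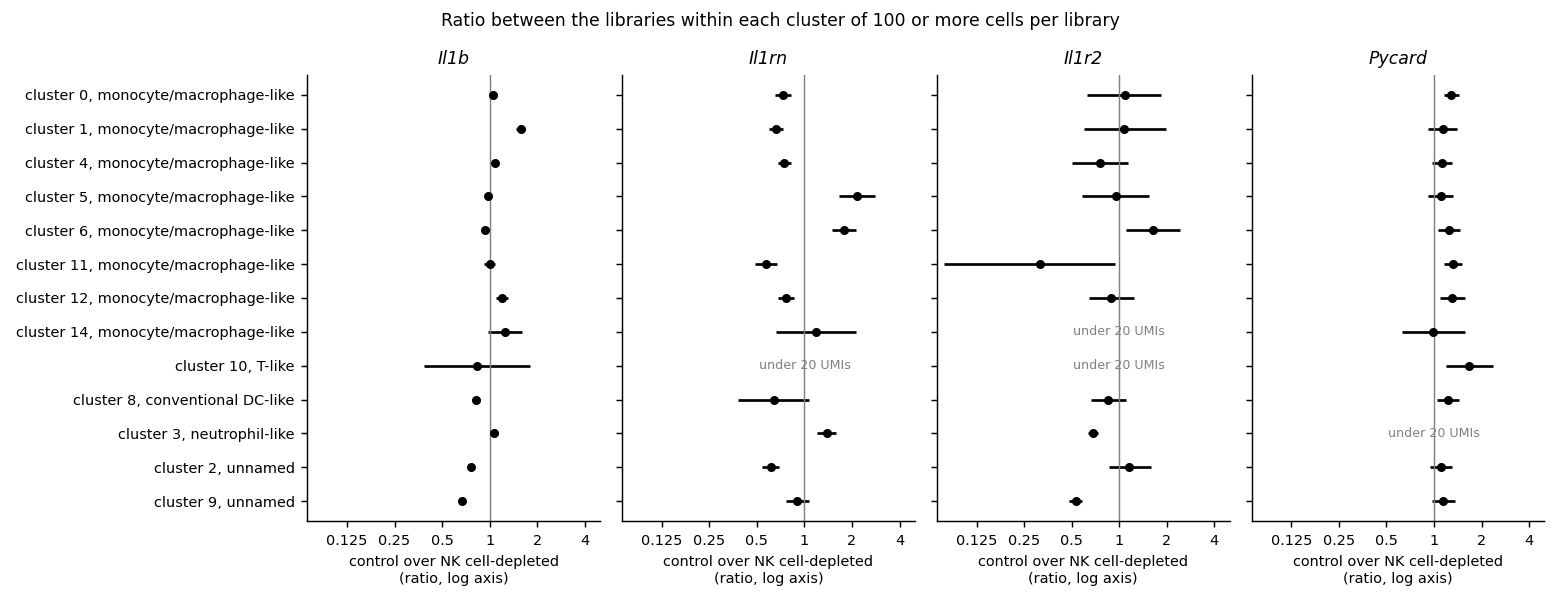
Ratio of the level in control cells to that in NK cell-depleted cells (log axis) of *Il1b*, *Il1rn*, *Il1r2* and *Pycard* in the 13 clusters with at least 100 cells per library, with exact 95% counting intervals. *Il1rn* runs from 0.570 to 2.16 and *Pycard* from 0.989 to 1.66.

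In cluster 18 *Il1b* stood at 6998 (5783 to 8394) CPM in the control and 1090.4 (814 to 1429.9) in the NK cell-depleted library, and *Il1rn* at 965 and 1028. These values came from 20 and 70 cells with 116 and 52 *Il1b* UMIs, and 5 control cells held 67.2% of the control UMIs. Mast cell markers summed to 5731 and 0 CPM in these cells (7 and 0 of 8 detected), eosinophil markers to 845 and 3984 (4 and 6 of 8), and neutrophil markers to 5309 and 7779.7 (8 and 7 of 8). Its markers thus differed in kind between the libraries, so its values stand side by side and are not a comparison of 1 cell type. In control NK-like cells *Il1b* stood at 226 CPM, and 5 cells held 58.4% of its UMIs.

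Of 43 other genes of the pathway, 34 were compared in monocyte/macrophage-like cells, of which 2 were called higher and 1 lower in the control. Over all genes of this class 6.14% were called higher and 2.91% lower, so that 3 calls in 34 genes were near the background. The median log2 ratio of the 34 was 0.06. *Myd88*, the adaptor of IL-1 and Toll-like receptors, was the gene called lower, at 82.5 against 124 CPM (0.664, 0.618 to 0.714). The genes called higher were *Il18r1*, at 1.52 against 0.553 from 22 and 9 UMIs, and the sensor gene *Nlrp1b*, at 7.94 against 5.10. *Il18r1* was also found in control NK-like cells. In the monocyte/macrophage-like class NK cell markers summed to 279 and 6 UMIs, or 19.3 and 0.369 CPM. Whether the *Il18r1* UMIs of this class came from NK cells was not tested. The kinase genes *Irak1*, *Irak2* and *Irak4*, which act next to MyD88, had ratios of 0.863, 0.791 and 0.834, and *Irak3*, whose product restrains them, 1.04. In conventional DC-like cells 28 were compared and 3 called, against 4.08% of all genes called higher and 4.15% lower in the control. *Myd88* was again lower in the control, at 107 against 168 (0.639, 0.521 to 0.780), as was *Irak4*, at 34.5 against 53.7, and *Il1rl2*, a receptor gene for IL-36, was higher, at 11.5 against 4.47 from 15 and 9 UMIs. In neutrophil-like cells 23 were compared and *Irak3* alone was called, lower at 25.2 against 61.8 from 12 and 44 UMIs. Over all genes of that class 3.9% were called higher and 4.55% lower in the control. Genes called on under 200 UMIs were named after their values were seen. No alternative, equal cluster weights included, was run for the other pathway genes, so whether their ratios depend on makeup was not tested.

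Among the other inflammasome genes in monocyte/macrophage-like cells, *Txnip*, which encodes a binding partner of NLRP3, stood at 331 and 254 CPM (1.31, 1.25 to 1.36). *Ninj1*, whose product ruptures the membrane of dying cells, stood at 267 and 199.5 (1.34, 1.28 to 1.40). The DNA sensor *Aim2* stood at 40.3 and 35.2, the pore-former gene *Gsdmd* at 53.4 and 52.5 and the caspase gene *Casp4* at 83.2 and 92.0. None of these 5 reached 1.5-fold. Of the inflammasome genes not named above, *Nek7* (0.889, 0.823 to 0.959) and *Naip6* (0.811, 0.694 to 0.948) were lower in the control beyond counting error. Higher beyond counting error were *P2rx7* (1.23, 1.08 to 1.41), *Casp8* (1.08, 1.004 to 1.17) and *Gsdme* (1.36, 1.02 to 1.82). The IL-36 cytokine gene *Il1f9* stood at 279 and 264 CPM in neutrophil-like cells, and *Il1rl1*, the receptor gene for IL-33, at 340.1 and 331 in T-like cells.

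Over the 20 clusters with at least 30 cells, both libraries summed, the genes most like each of the 10 among 7727 genes were ranked by Pearson's r of log2(CPM + 5). *Il1b* was most like *Nlrp3* (0.947), *Lilrb4a* (0.940) and *Mefv* (0.920), and *Nlrp3* most like *Il1b* (0.947), *Cd14* (0.938) and *Trib1* (0.936). *Il1rn* was most like *Lilr4b* (0.936), *Gabarap* (0.932) and *Slc16a3* (0.911), and *Il1r2* most like *Ifitm1* (0.946), *Ptgs2os2* (0.879) and *Lmnb1* (0.858). *Il1rap* was most like *Atg9a* (0.853), *Arg2* (0.849) and *Lyrm2* (0.847), and *Il18bp* most like *Znfx1* (0.804), *Ifit3* (0.801) and *Iigp1* (0.786), of which *Ifit3* and *Iigp1* are interferon-inducible genes. *Casp1* was most like *Jarid2* (0.923), *Cybb* (0.895) and *Ms4a6c* (0.890), and *Pycard* most like *Ccr2* (0.925) and *Cd48* (0.904). *Il1a* and *Il1r1* had under 500 UMIs and were not ranked. These correlations describe clusters that share 2 libraries and differ in depth.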

How the data were processed

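The authors deposited UMI counts per gene and cell, 1 matrix per library (10x 3′ v3; build mm10 per the labels; Cell Ranger 3.0.2 per the file headers, another release per the methods). Reads were thus already aligned and collapsed to molecules. A deposited table of normalized values was not used. The study's own cell filter was applied (UMIs from 500 to 15000, detected genes from 200 to 4000, mitochondrial share up to 10%), leaving 24810009 and 23245982 UMIs. Both libraries were clustered together on 15 principal components of log2(CPM + 1) by Leiden (leidenalg 0.10.2) at resolution 1. Clusters were named from marker lists by thresholds set after the clusters were seen, so differences from the study may come from rebuilt names. Scrublet (scanpy 1.11.5) marked 41 and 31 cells, which were kept.

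UMIs were summed by class and library. Intervals were exact (Poisson for levels, conditional binomial for ratios, Clopper-Pearson for shares), and the scripts were tested on simulated data. The genes, lists and rules were chosen with earlier results of these data known. All 10 genes were named, other pathway genes were counted by list and named from 200 UMIs in a class, and the 3 genes most like each gene with at least 500 UMIs were given, except 1 that is not reported here. Alternatives covered cell filters, doublets, resolution, depth, scaling, makeup, free RNA and low counts. Ratios were recomputed under them for the 10 genes in monocyte/macrophage-like and neutrophil-like cells only.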

Additional observations from a re-analysis of the deposited data

Results flagged for a closer look

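*Il1b* differed in opposite directions between the libraries in the 2 largest named myeloid classes. Its ratio of control to NK cell-depleted cells was 0.919 (0.902 to 0.937) in monocyte/macrophage-like cells and 1.09 (1.06 to 1.11) in neutrophil-like cells. These opposite directions did not hold in other settings: with cluster weights set equal between the libraries the ratios were 1.06 and 1.06, and the neutrophil-like ratio was 0.869 at resolution 2 and 0.531 after thinning to 2000 UMIs. Over the 13 clusters with at least 100 cells per library its ratio ran from 0.667 in cluster 9 to 1.57 in cluster 1. *Il1rn* ran from 0.570 in cluster 11 to 2.16 in cluster 5. *Il1r2* ran from 0.313 in cluster 11, from 4 and 19 UMIs, to 1.64 in cluster 6, from 45 and 70. With 1 library per group, none of these differences was tested.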

How the results depend on the processing

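No paired analysis was possible because each group had 1 library, and for the same reason no replicate could be left out. In monocyte/macrophage-like cells 1 gene (*Il1a*) was called. The count was 0 without upper limits on UMIs and genes, 0 at clustering resolution 0.5 and 2 with the level in B-like cells subtracted, where *Pycard* was the second gene. There the *Pycard* ratio was 0.535, on the other side of 1, since B-like cells held 11 and 0 *Pycard* UMIs. The interval behind this call was rescaled with the ratio and leaves out the counting error of those UMIs, from 56 and 38 B-like cells. Whether those UMIs are free RNA was not tested, and T-like cells held 163 and 97.9 CPM of *Pycard*. In neutrophil-like cells 1 gene (*Il1a*) was called. The count was 2 with at least 1000 UMIs and at most 5% mitochondrial UMIs (*Il1a*, *Il1r2*), 2 at resolution 2 (*Il1r2*, *Pycard*), 2 at resolution 0.5 (*Il1a*, *Il1rn*), 2 after thinning to 2000 UMIs, which left 10 and 33 cells (*Il1b*, *Il1r2*), and 2 with cluster 19 included, an alternative chosen after seeing the data. It was 0 without Scrublet doublets, 0 without the 5 cells with most UMIs of a gene, 0 at equal cluster weights and 0 with at least 100 UMIs required.

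*Il1rn* per 100 *Il1b* UMIs in control monocyte/macrophage-like cells was 18.5 without upper limits, 20.9 at resolution 2 and 16.0 at 0.5, and in NK cell-depleted ones 19.3 with the stricter filter, 19.8, 16.3 at those resolutions and 16.7 thinned. In control neutrophil-like cells it was 4.08, 5.20, 5.92 thinned and 3.09 without the 5 cells, and in NK cell-depleted ones 3.24 at 0.5 and 3.71 thinned. Of 174 ratios recomputed, 33 lay outside the counting interval of the reported value. Of 280 recomputed shares of a gene's UMIs held by monocyte/macrophage-like or neutrophil-like cells, 148 did so. The reported shares thus depend on the processing. *Il1b* and *Nlrp3* in neutrophil-like cells each lay on the other side of 1 in 2 of 12 alternatives. In monocyte/macrophage-like cells *Casp1* did so in 6 of 10 and *Il1rn* in 3 of 11, both from reported ratios close to 1. Apart from the makeup of the classes and cells left out, the causes were not tested. Genes with few UMIs, *Il1a* and *Il1r1* above all, are limited by depth.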
